A study of Mus musculus with 143 samples.

Results

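The GeoMx mouse whole transcriptome panel has 20175 probe codes in the deposited counts, and 5 of these hybridization probes are described here: RTS0067799, RTS0067780, RTS0067777, RTS0067781 and RTS0067786. These 5 probes were selected on measured values of the same brain sections, as abundant probes whose counts were lower under an IBA1 mask than under a nuclear mask. The deposited counts pair no probe code with a gene, so each probe is named by its code, no function is given, and the cells under each mask could not be checked against marker genes. The sections were 5 µm thick and came from paraffin-embedded sagittal hemispheres of 5 female C57BL/6 mice aged 28 months, called N101, N108, N110, N111 and N112. Every group shared that strain, sex and age, and the labels give no treatment, genotype change or younger animals. Areas were placed in the fimbria, the hippocampus and the cortex. Within an area the counts were collected under up to 4 masks, drawn on IBA1, on IBA1 together with Galectin-3 (the double mask), on Galectin-3, or on the nuclear dye SYTO83. The sample titles name the SYTO83 mask NUCONLY, so it may leave out nuclei in area positive for IBA1 or Galectin-3. Whether area positive for both proteins was left out of the single-protein masks is not stated in the labels.

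In this assay each probe binds a stretch of RNA in the tissue section and carries a DNA tag, which ultraviolet light releases from the masked area for sequencing. IBA1 is a protein of microglia, the resident macrophages of the brain, and Galectin-3 is a sugar-binding protein that reactive and phagocytic macrophages can express. SYTO83 stains the nuclei of every cell type. The fimbria is a white-matter tract along the hippocampus, made mostly of axons and oligodendrocytes, whereas the hippocampus and the cortex hold the cell bodies of neurons. A mask follows stained area rather than whole cells, so RNA in processes of neighbouring cells can fall under it.

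Of the 143 segments, 122 held at least 1000 counts at a saturation of at least 50%, and these passing segments entered the values below. Their depth ran from 1699 to 196736 counts with a median of 19510. Of the other segments, 18 fell under the count minimum and 3 failed on saturation alone. Segments of a mouse, region and mask were summed into 45 sums, so that the mouse was the replicate. A level is given as the share of a sum's counts, per 10000 counts. Counting intervals (95%, exact binomial) cover counting error only. A share under a mask cannot tell fewer cells of a type from less RNA per cell, and it falls when other probes rise.

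Over the passing segments the 5 probes held 19031 of 3847568 counts, or 0.495% of all counts. By total counts RTS0067799 ranked 1 of 20175 with 7958 counts, RTS0067780 ranked 3 with 5397 and RTS0067777 ranked 4 with 3540. RTS0067781 followed at rank 7 with 1595 counts. RTS0067786 was much less abundant, at rank 67 with 541 counts. The 5 therefore span a wide range of counts, and the description as abundant fits RTS0067786 least. A probe's count also depends on how well the probe binds, so these are ranks of counts and not of transcripts. RTS0067777 had a count in 120 of the 122 segments, RTS0067799 in 118, RTS0067780 in 115, RTS0067781 in 106 and RTS0067786 in 93.

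In the fimbria the 5 probes together had a lower share under IBA1 than under SYTO83 in every mouse. Under SYTO83 the 5 probes together reached 56.9 per 10000 in N101, 82.3 in N108, 174 in N110, 139 in N111 and 164 in N112, with a mean of 123 ± 51.5 (SD, n = 5). Under IBA1 they reached 13.1 in N101, 24.0 in N108, 48.8 in N110, 53.1 in N111 and 96.8 in N112, with a mean of 47.2 ± 32.4 (SD, n = 5). The ranges of the groups overlapped, because N112 under IBA1 lay above N101 and N108 under SYTO83, while within each of the 5 mice the IBA1 sum was the lower one. The N112 IBA1 sum was 1 segment, on library plate B, whereas N101 and N108 were on library plate A alone (plates are described below). The within-mouse difference, IBA1 minus SYTO83, averaged −1.58 on the log2 scale (SD 0.53, n = 5), a share 2.99-fold lower, and ran from 4.36-fold lower in N101 to 1.69-fold lower in N112.

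RTS0067799, the most counted probe of the panel, stood at 21.8, 33.4, 69.9, 59.1 and 71.6 per 10000 under SYTO83 in the fimbria of N101, N108, N110, N111 and N112. Under IBA1 it stood at 4.65, 11.2, 20.9, 22.7 and 43.5 in the same order. N101 was lowest and N112 highest under both masks, and the ranges overlapped. RTS0067780 stood at 15.6, 22.5, 52.2, 42.7 and 49.8 under SYTO83 and at 3.26, 6.22, 14.0, 15.2 and 26.1 under IBA1. Its difference, IBA1 minus SYTO83, was the largest of the 5 on the share scale, at −1.69 (SD 0.50, n = 5 mice). RTS0067777 stood at 13.3, 14.8, 31.6, 23.3 and 27.0 under SYTO83 and at 3.30, 4.38, 8.54, 9.64 and 17.8 under IBA1. Its difference was the smallest of the 5, at −1.51 (SD 0.58), so the 5 differences lay within less than 1 SD of each other.

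The remaining pair was less abundant and carried wider counting error. RTS0067781 averaged 9.70 ± 3.67 per 10000 under SYTO83 and 3.59 ± 2.40 under IBA1 (SD, n = 5 mice), and RTS0067786 averaged 4.03 ± 1.93 and 1.30 ± 0.72. Each was lower under IBA1 in 5 of 5 mice, as were the other 3 probes of the list. Over all 866 tested probes, 176 (20.3%) had a lower share under IBA1 in every mouse of the fimbria. The fimbria IBA1 sums held between 4 and 21 counts of RTS0067786, and the 4 counts in N108 leave an interval of 0.154 to 1.45 per 10000.

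Because these IBA1 and SYTO83 levels took part in choosing the probes, the differences are given as a description and with no test. With TMM scaling, which centres the log2 fold of all tested probes at −0.0022, the fitted folds of the 5 probes in the fimbria ran from −1.10 for RTS0067799 (SE 0.33) to −1.34 for RTS0067786 (SE 0.29). On the share scale the median over all 866 tested probes was −0.41, so the share of the typical tested probe was lower under IBA1 too. For background, 24 of the 866 tested probes (2.77%) were lower under IBA1 in the fimbria at an edgeR adjusted p under 0.05. The 5 are among them because values of this contrast chose them, so their membership is no test and nothing is read from it. The most counted probe of the 24 outside the list had 1683 counts and a fold of −0.89. Other abundant probes were mixed. Of the 94 other tested probes among the 100 most counted, 48 were lower under IBA1 in every mouse, and the median difference of the 94 was −0.77 on the share scale, with a range from −1.55 to 1.35.

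In the hippocampus the difference varied more between mice. Under SYTO83 the 5 probes together reached 31.8 per 10000 in N101, 75.2 in N108, 92.7 in N110, 85.7 in N111 and 136 in N112. Under IBA1 they reached 29.0 in N101, 24.3 in N108, 26.5 in N110, 79.9 in N111 and 43.9 in N112. N108, N110 and N112 showed shares more than 3-fold lower under IBA1, whereas N101 and N111 were only 1.09-fold and 1.07-fold lower. The mean difference was −1.06 on the log2 scale (SD 0.86, n = 5), and the SD was close to the mean itself. In segments with at least 75% of raw reads aligned the mean difference was −0.26 (SD 0.94, n = 4 mice), and why it was smaller there was not tested.

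Among the single probes in the hippocampus, RTS0067780, RTS0067777 and RTS0067799 were lower under IBA1 in 5 of 5 mice. RTS0067786 was lower in 4 of 5. RTS0067781 was lower in 3 of 5, with 1.82 per 10000 under SYTO83 against 3.04 under IBA1 in N101, and 5.78 against 6.59 in N111. Its mean difference of −0.66 (SD 1.07) moved to −1.02 without N101 and to −0.42 without N110. The fitted TMM folds ran from −0.32 for RTS0067781 (SE 0.30) to −0.88 for RTS0067786 (SE 0.31), beside a median of 0.04 over all tested probes. How many of all tested probes were lower in every mouse is given for the fimbria alone. Nothing is therefore read from these hippocampal counts of mice.

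In the cortex the shares of the 5 probes together varied less between mice than in the other regions. Under SYTO83 the 5 probes together reached 73.8 per 10000 in N101, 74.2 in N108 and 70.8 in N111. Under IBA1 they reached 27.6 in N101, 27.0 in N108, 23.1 in N110 and 29.3 in N111. The groups did not overlap. The mean difference over the 3 mice with both masks was −1.38 on the log2 scale (SD 0.098), or 2.61-fold lower. With TMM-scaled totals that difference was −1.05. RTS0067799 stood at 27.6, 27.1 and 29.0 under SYTO83 in N101, N108 and N111, against 11.3, 6.74 and 10.7 under IBA1. Each of the 5 probes was lower under IBA1 in 3 of 3 mice. Their fitted TMM folds ran from −1.02 for RTS0067777 (SE 0.38) to −1.30 for RTS0067780 (SE 0.40). The median fold over all tested probes was −0.04. How many of all tested probes were lower in 3 of 3 mice, or did not overlap, is not given here. Nothing is therefore read from the mouse counts or the lack of overlap. All cortex segments were on 1 of the 2 library plates.

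Within single areas, 30 areas held a passing segment of both masks, and the 5 probes together were lower under IBA1 in 29 of them. That was 13 of 13 areas in the fimbria, 11 of 12 in the hippocampus and 5 of 5 in the cortex. The median difference over the 30 areas was −1.36 on the log2 scale, with a range from −3.05 to 0.31. The exception was a hippocampal area of N101 with 25.3 per 10000 under IBA1 and 20.4 under SYTO83. By probe, RTS0067799 was lower under IBA1 in 29 of 30 areas, RTS0067777 and RTS0067780 in 28, RTS0067781 in 27 and RTS0067786 in 26. Areas of a mouse are not independent animals, and the 30 areas came from 5 mice. The same counts of areas over all tested probes are not given here, so nothing is read from them.

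Galectin-3 labelling added masks within the same regions, and in the fimbria the double mask lay mostly between the other masks. The 5 probes together reached 21.8 per 10000 in N101, 37.5 in N108, 68.9 in N110, 67.2 in N111 and 65.3 in N112, with a mean of 52.1 ± 21.3 (SD, n = 5). The double-mask sum lay below the SYTO83 sum in 5 of 5 mice, by −1.25 on the log2 scale (SD 0.14), and above the IBA1 sum in 4 of 5 mice, by 0.33 on average (SD 0.53). In N112 it was 1.48-fold lower than the IBA1 sum, where the double-mask sum held 9039 counts. Of the 12 fimbria areas with all 3 of these masks, 10 had the double-mask share between the other shares, 2 had it at or below IBA1 and 0 had it at or above SYTO83. These values share the IBA1 and SYTO83 sums that chose the probes and are descriptive.

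Under Galectin-3 in the fimbria the 5 probes together reached 25.6 per 10000 in N101, 19.0 in N108, 35.1 in N110 and 55.7 in N111, with a mean of 33.9 ± 16.0 (SD, n = 4). That was below SYTO83 in 4 of 4 mice, and on both sides of IBA1, higher in N101 and N111 and lower in N108 and N110. In the hippocampus the double mask gave 35.7 ± 22.1 and Galectin-3 gave 28.8 ± 13.7 (SD, n = 3 each), both below SYTO83 in 3 of 3 mice. The Galectin-3 sums there held 1732 to 11152 counts and the N101 sum had 0 counts of RTS0067780, RTS0067781 and RTS0067786. At that depth the exact interval of a 0 reaches 21.3 per 10000, so single probes were poorly measured. In the cortex the double mask gave 13.2 ± 0.72 (SD, n = 3), the lowest of any group and about 2.01-fold below IBA1. That mean rested on 16 counts of the 5 probes in sums of 3564 to 4585 counts. RTS0067781 had 0 of the 12113 counts there. The exact interval reaches 3.04 per 10000, which includes its cortical IBA1 level of 2.59 ± 0.51 (SD, n = 4).

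The order of the group means for the 5 probes together was SYTO83 in the fimbria, hippocampus and cortex, then the fimbria double mask, IBA1 in the fimbria and hippocampus, the hippocampal double mask, the Galectin-3 masks, IBA1 in the cortex and the cortical double mask. Neighbours in this order differed by less than 1 SD of the wider group, apart from the last step from cortical IBA1 to the cortical double mask, which exceeded the SD of either group. Counting error was wider than the SD of that double-mask group. Its counting intervals reached 32.7 per 10000 in N101, 29.4 in N110 and 28.5 in N111, each above the cortical IBA1 mean of 26.8. The interval of its pooled counts was 7.55 to 21.4.

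In 8 contrasts that the selection did not set directly, all probes were tested with edgeR, with the mouse as a block and Benjamini-Hochberg adjustment. Of the 5 probes, 0 were called in any of them by edgeR and 0 by DESeq2. The contrasts that include fimbria or other IBA1 and SYTO83 sums share those sums with the selection. Choosing probes low under IBA1 and high under SYTO83 can favour a direction there. The folds, directions and p-values of these contrasts are therefore given as a description, and no support is drawn from them. For SYTO83, fimbria against hippocampus, the 5 fitted folds lay above 0, from 0.33 (RTS0067780, SE 0.31) to 0.70 (RTS0067781, SE 0.29) on the log2 scale, beside a median of 0.08 over all tested probes. With at least 75% of reads aligned, the folds of RTS0067780 and RTS0067786 were −0.08 and −0.24. RTS0067781 was higher in the fimbria in 5 of 5 mice and had the lowest edgeR adjusted p of the 5, at 0.395, with an unadjusted p of 0.0169. RTS0067777, RTS0067786 and RTS0067799 were also higher in 5 of 5 mice, and RTS0067780 in 3 of 5. In that contrast edgeR called 0.115% of the 866 probes, and 75 were under 0.05 before adjustment. DESeq2 called 1.

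The other SYTO83 contrasts had smaller folds. For fimbria against cortex the 5 folds ran from 0.17 to 0.49, with an edgeR adjusted p of 0.984 for each, beside 0% of probes called (37 at an unadjusted p under 0.05, 0 by DESeq2). The direction turned on plate A alone, the only plate with cortex, where the folds ran from −0.29 for RTS0067780 to 0.05 for RTS0067786 and 4 of the 5 lay below 0. For hippocampus against cortex they ran from −0.53 to −0.03, with edgeR adjusted p from 0.894 to 0.989, beside 0.115% called (55 unadjusted, 0 by DESeq2). With upper-quartile scaling the folds of RTS0067786 and RTS0067799 there were 0.05 and 0.03. RTS0067781 and RTS0067777 were lower in the hippocampus than in the cortex in 3 of 3 mice. A p above the threshold does not show that the regions were alike.

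Under IBA1 the folds between regions changed direction with the segments used. For fimbria against hippocampus the 5 folds lay on both sides of 0, from −0.23 for RTS0067781 (SE 0.30) to 0.08 for RTS0067786 (SE 0.31), with an edgeR adjusted p of 0.997303 for each, where 0.115% of probes were called (38 unadjusted, 0 by DESeq2). They ran from −0.69 to 0.01 on plate A alone and from 0.26 to 0.57 on plate B alone. For fimbria against cortex the folds ran from 0.08 to 0.51, with an edgeR adjusted p of 0.968 for each, and 0% were called (38 unadjusted, 0 by DESeq2). RTS0067799 was higher in the fimbria in 3 of 4 mice and the other 4 probes in 2 of 4, and on plate A alone the 5 folds lay below 0, from −0.75 to −0.14. For hippocampus against cortex they ran from 0.07 to 0.63, with edgeR adjusted p from 0.910 to 0.971, and 0% were called (51 unadjusted, 0 by DESeq2). The largest was that of RTS0067799, at 0.63 (SE 0.37), higher in the hippocampus in 3 of 4 mice. On plate A alone the folds ran from −0.17 to 0.18.

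Among the Galectin-3 masks, 4 of the 5 probes passed the count filter, and RTS0067786 did not. For the double mask, fimbria against hippocampus, their folds ran from 0.19 for RTS0067799 (SE 0.55; −0.24 with scaling by total counts) to 0.79 for RTS0067781 (SE 0.54), beside a median of 0.22 over the 237 tested probes. There 1.69% of probes were called (21 unadjusted, 0 by DESeq2), and edgeR adjusted p for the 4 probes ran from 0.783 to 0.934. For Galectin-3 against the double mask in the fimbria the folds ran from −0.64 for RTS0067781 (SE 0.48) to −0.08 for RTS0067780 (SE 0.48), beside a median of −0.17. RTS0067781 and RTS0067799 were lower under Galectin-3 in 4 of 4 mice. In that contrast 2.53% were called (20 unadjusted, 4 by DESeq2), and edgeR adjusted p for the 4 probes ran from 0.873 to 0.980.

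Levels of the 5 probes also moved with the library plate, which the library names give. Plate A held 80 segments of N101, N108, N110 and N111, and plate B held 63 of N110, N111 and N112. The plates held different areas of a mouse, with separate series of area numbers, so plate and area cannot be told apart. In the fimbria under IBA1, N110 had 25.8 per 10000 in its plate A segment and 75.7 and 76.9 in its plate B segments. N111 had 24.8 and 25.5 on plate A and 51.2 to 79.2 on plate B. Under SYTO83, N110 had 104 and 110 on plate A against 176 to 225 on plate B, and N111 had 59.9 against 107.9 to 203. Every plate B segment of these sums lay above every plate A segment, while hippocampal IBA1 segments of N110 did not separate, with 25.3 and 40.1 on plate A and 9.76 to 68.7 on plate B. Nor did the Galectin-3 segments of N110 in the fimbria, with 40.4 on plate A and 14.8 to 50.8 on plate B. In the fimbria the IBA1 minus SYTO83 difference was −1.80 (SD 0.39, n = 4 mice) on plate A and −1.15 (SD 0.34, n = 3 mice) on plate B. In the hippocampus it was −0.88 (SD 1.06, n = 2) on plate A and −1.19 (SD 0.95, n = 3) on plate B. The 5 together were lower under IBA1 in each of these mice. By probe, RTS0067781 and RTS0067786 were lower in only 1 of 2 hippocampal mice on plate A, and RTS0067781 in 2 of 3 on plate B. Of 4 hippocampal areas on plate A, 3 were lower, with a median of −0.34.

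In the fimbria, and under SYTO83 in the hippocampus, the levels moved with the share of raw reads that aligned as well. Under IBA1 in the hippocampus they did not fall with a higher aligned share. In the fimbria under SYTO83 the 7 segments with under 50% of reads aligned had a median of 176 per 10000, and the 6 segments with at least 75% aligned had 71.3. In the hippocampus under SYTO83 the medians were 134 in 6 segments and 48.3 in 8. Under IBA1 the medians were 49.9 in 4 segments and 27.6 in 10 in the fimbria, and 33.3 in 4 and 36.9 in 9 in the hippocampus. In the fimbria the mask difference in segments with at least 75% aligned was −1.66 (SD 0.65, n = 4 mice), as large as over all segments. The part of plate and aligned share in the differences between mice was not tested.

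The order of the 5 probes by counts was the same in the medians of their proportions, which varied between sums. Over the 32 sums with at least 100 counts of the 5, RTS0067799 made up a median of 41.3% of their counts (35.6% to 49.2%) and RTS0067780 27.8% (18.2% to 36.9%). RTS0067777 made up 18.2% (14.0% to 30.1%), RTS0067781 8.02% (4.67% to 12.3%) and RTS0067786 2.65% (0.53% to 4.55%). In the fimbria the median proportion of RTS0067799 was 42.9% under IBA1 and 40.6% under SYTO83, and that of RTS0067780 was 27.0% and 29.9%. Across the 27 IBA1 and SYTO83 sums the log2 shares of the 10 pairs of probes correlated with Pearson's r from 0.860 to 0.945. After the mean of each region and mask was removed, r was still 0.745 to 0.932. These sums share mice, plates and the mask contrast of the selection, and the correlations are a description.

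Outside the list, 2 tested probes had the pattern most like the 5, by Pearson's r of log2 share with the mean of the 5 over the same 27 sums. RTS0081191 (1474 counts, rank 8) had r = 0.952 and RTS0075770 (542 counts, rank 65) had r = 0.933. RTS0081191 stood at 2.45 per 10000 in the pooled fimbria IBA1 sums and 8.17 in the SYTO83 sums. RTS0075770 stood at 1.04 and 2.78. The median r of all 861 other tested probes was 0.319.

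The codes of the 5 probes lie close together. From the lowest to the highest there are 23 codes, all in the counts, which is 0.114% of all codes and 0.629% of all counts. The 18 codes between them that are not on the list had a median of 161.5 counts, beside 178 over all probes, so the typical one of these 18 was not abundant. Of these 18 codes, 3 were among the 100 most counted probes and 7 were tested. Of those 7, 6 had a fitted fold below 0 for IBA1 against SYTO83 in the fimbria, beside 50.2% of all tested probes, and their median fold was −0.69 with a range from −1.09 to 0.09. By edgeR 3 of the 7 were called lower in IBA1 and 0 higher, in a contrast that took part in the selection. What a nearby code means for a probe's target is not given in the sources used here.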

How the data were processed

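Each deposited file lists, for a segment, deduplicated counts by probe code, without normalization. Per the file headers, the authors made them with the GeoMx NGS Pipeline 2.3.3.10, which matches reads to probe tags and merges reads of the same molecular identifier. Raw and aligned read totals were read from the same headers. Per the submitters' processing notes the build was GRCm39. Saturation was computed as 1 minus counts over aligned reads, as a percent. The labels give 143 segments of 5 mice. Of their pairs, 0 had identical counts, and 6 anterior commissure segments failed the depth minimum.

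The 5 probes, the comparisons and the alternatives were chosen with earlier results of these data known. The rule for named probes took the 5 listed and the 2 other tested probes most correlated with them. The mouse was the replicate and, since segments of a mouse come from the same animal, the block in each fit. Sums of at least 5000 counts entered edgeR 4.0.16 in R 4.3.3 (quasi-likelihood F test, TMM, filterByExpr at a minimum count of 10). One fit held 27 IBA1 and SYTO83 sums and 866 probes, the other 28 IBA1, double and Galectin-3 sums and 237 probes. The script was tested on simulated data with known changes. Shares came from Python 3.11.15 with exact intervals from scipy 1.17.1. Log2 differences of shares are means of within-mouse values, and the likeness used a pseudocount of 0.5. Alternatives were DESeq2 1.42.0, other scalings, filters, minimums and fits, plate, aligned share and each mouse left out. Negative-control probes could not be told apart by code, so no background was subtracted.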

Additional observations from a re-analysis of the deposited data

Results flagged for a closer look

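Over 84 groups of 4 or 5 mice, 4 values lay apart from the rest of their group by Dixon's criterion, and chance gives about 1 in 20 groups. In the hippocampus under IBA1, N111 was highest of 5 mice for RTS0067780, at 21.4 per 10000 against 6.83 to 10.2 in the other 4. The same sum of N111 was highest for RTS0067781, at 6.59 against 1.94 to 3.04. In the fimbria, N112 was lowest of 5 mice for RTS0067780 under the double mask, with a log2 difference of −1.56 from IBA1 and −2.49 from SYTO83. The double-mask sum of N112 held 8 counts of that probe, so both values rest on the same few counts.

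Of 61 pairs of regions looked at, each for a probe or the 5 together and a pair of masks, 1 had opposite signs. There, every mouse with counts under both masks lay below 0 in a region and above 0 in the other. RTS0067786 under Galectin-3 minus SYTO83 averaged −1.77 in the fimbria, lower in 4 of 4 mice, and 0.82 in the hippocampus, higher in both mice with counts, so that the regions differed by −2.59 on the log2 scale. Of these hippocampal mice, N110 was at only 0.05. N101 was left out because its hippocampal Galectin-3 sum held 0 counts of the probe in 1732. Under SYTO83 N101 had 0.83 per 10000. The exact interval of its 0 under Galectin-3 reaches 21.3 per 10000, so the direction in N101 could not be told. The difference was not tested, and the Galectin-3 sums held 10 counts of RTS0067786 in the fimbria and 5 in the hippocampus. The hippocampal value of N108 was 1.59 and rested on 2 counts under Galectin-3 and 1 count under SYTO83.

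The 6 anterior commissure segments, all of N110 and under the depth minimum, held 5 counts of the 5 probes in 791 counts, or 63.2 per 10000 (95% exact interval 20.6 to 147). The limit that a count of 0 allows there, taken as 3 counts over the total, is 37.9 per 10000.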

How the results depend on the processing

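Under every alternative run, 0 of the 5 probes were called in the 8 tested contrasts (624 fitted values, 107 of them with the other sign and 99 moved by over 1 SE). Without the mouse block ("no replicate block") 0 were called in each contrast too, and the SYTO83 fimbria minus cortex fold of RTS0067780 was 0.62 in place of 0.22. Counts of called probes over all tested ranged from 0 to 8 for SYTO83 fimbria against hippocampus (1 in the main setting), 0 to 2 for SYTO83 hippocampus against cortex (1), 0 to 4 for IBA1 fimbria against hippocampus (1), 0 to 1 for the other IBA1 and SYTO83 contrasts (0), 0 to 7 for the double mask (4) and 0 to 8 for Galectin-3 against the double mask (6). Plate B alone could not be fitted for the 4 contrasts with cortex. In the cortex the IBA1 minus SYTO83 difference of −1.38 was −1.24 with at least 75% aligned and −1.05 with TMM-scaled totals. In the fimbria it ran from −1.80 to −1.15, and in the hippocampus from −1.30 to −0.26, where RTS0067781 reached 0.11 with at least 75% aligned. The cause was not tested. Depth limits the values of RTS0067786 and of the Galectin-3 and cortical double-mask sums.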

Other observations

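The first digits of the code were looked at after the values were seen, and no test was made. Codes that begin like those of the 5 probes, RTS0067, made up 981 of the 20175 codes (4.86%) and 74 of the 866 tested (8.55%). Of the 24 probes called lower under IBA1 in the fimbria by edgeR, 14 had such a code (58.3%), 9 of them outside the list, and of the 21 called higher, 1 had. The stretch of 23 codes around the list held 8 of the 24. Since the 5 probes are themselves among these calls, the counts describe the selection as well as the codes.

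The 3 segments that failed on saturation alone held the 5 probes at 17.2 per 10000 (N101, fimbria, Galectin-3), 24.0 (N110, fimbria, IBA1) and 64.2 (N110, hippocampus, SYTO83). Across all 15 segments outside the anterior commissure that failed, the 5 probes together stood at 26.9 per 10000 (95% exact interval 21.0 to 34.1).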
